A study of Mus musculus with 54 samples.

Results

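The genes described here are 6 enzymes of cholesterol synthesis, *Hmgcs1*, *Idi1*, *Fdft1*, *Sqle*, *Lss* and *Cyp51*, and *Insig1*, which encodes a membrane protein that restrains the same pathway. They were taken from the expression table by gene symbol, and each of the 7 symbols matched 1 row of the 20162 rows. The livers came from male C57BL/6J wild-type mice that were fed a high-fat diet ad libitum from 8 weeks of age and received the plasticizer di-isononyl phthalate (DINP) orally for 20 weeks. The daily dose was 0 (control, n = 14), 1.5 (n = 13), 15 (n = 13) or 150 mg/kg body weight (bw) (n = 14), so all 54 mice, controls included, carried the dietary challenge and no group on a standard diet was compared. RNA of the medial liver lobe was sequenced from the 3′ ends of mRNA (QuantSeq), and each mouse gave 1 library.

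Cholesterol is built from acetyl-CoA through mevalonate and squalene, and liver is a main site of this synthesis. The transcription factor SREBP2 is held in the endoplasmic reticulum by SCAP and the INSIG proteins while sterols are plentiful. When sterols fall, SCAP carries SREBP2 to the Golgi, where proteases release its active part, and the genes of the pathway are transcribed. *Insig1* is itself a target of this factor, so it both responds to the system and closes its feedback loop, whereas the related SREBP1c acts mainly on fatty acid synthesis.

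The values are TPM that, as read from the numbers, had been rounded to whole numbers and divided by 1 factor per mouse, and they are called scaled TPM below. In the annotation of the mouse genome build GRCm38 (GENCODE M21), *Hmgcs1* lies on chromosome 13 at 119690379-119708260 and *Idi1* on chromosome 13 at 8885501-8892451. *Fdft1* lies on chromosome 14 at 63145150-63179578 on the minus strand and *Sqle* on chromosome 15 at 59315077-59331192. *Lss* lies on chromosome 10 at 76531588-76557138, *Cyp51* on chromosome 5 at 4081145-4104746 on the minus strand, and *Insig1* on chromosome 5 at 28071363-28078662. The last 1000 bases of 3 of these genes overlap a gene on the other strand: *Ctsb* at *Fdft1*, *Akap9* at *Cyp51* and *4930483K19Rik* at *Lss*. The libraries record strand, but whether strand was used in the counting was not given in the sources used here, so the values of these 3 genes are less certain than those of the other 4.

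RefSeq promoter sequence (GRCm38.p6, from 250 bases before to 50 bases after the start of transcription) was present for 5 of the 7 genes, not for *Fdft1* or *Sqle*. The motifs TCACNCCAC (a form of the sterol regulatory element), CACGTG (an E-box), CCAAT and GGGCGG (a GC box) were searched on both strands, and they were chosen after these promoters had been read. The promoters of *Hmgcs1*, an early enzyme of the pathway, *Insig1*, its regulator, and *Lss*, whose level differed most clearly between dose groups, are given 5′ to 3′ with every match to any of the 4 motifs, on either strand, in capitals. Their positions are chr13:119690101-119690400, plus strand, chr5:28071162-28071461, plus strand, and chr10:76531355-76531654, plus strand.
Hmgcs1: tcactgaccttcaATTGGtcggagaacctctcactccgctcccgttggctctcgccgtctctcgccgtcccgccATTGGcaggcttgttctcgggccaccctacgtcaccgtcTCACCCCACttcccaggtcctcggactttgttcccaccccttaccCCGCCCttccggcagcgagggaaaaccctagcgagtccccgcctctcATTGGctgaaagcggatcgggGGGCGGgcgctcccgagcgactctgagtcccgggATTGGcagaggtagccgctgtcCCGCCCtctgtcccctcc
Insig1: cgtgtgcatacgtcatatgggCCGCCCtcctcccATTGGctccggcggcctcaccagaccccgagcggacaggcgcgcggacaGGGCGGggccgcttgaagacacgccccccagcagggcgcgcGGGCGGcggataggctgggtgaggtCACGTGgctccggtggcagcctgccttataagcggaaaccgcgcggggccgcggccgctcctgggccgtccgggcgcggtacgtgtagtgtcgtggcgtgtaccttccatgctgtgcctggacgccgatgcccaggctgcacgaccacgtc
Lss: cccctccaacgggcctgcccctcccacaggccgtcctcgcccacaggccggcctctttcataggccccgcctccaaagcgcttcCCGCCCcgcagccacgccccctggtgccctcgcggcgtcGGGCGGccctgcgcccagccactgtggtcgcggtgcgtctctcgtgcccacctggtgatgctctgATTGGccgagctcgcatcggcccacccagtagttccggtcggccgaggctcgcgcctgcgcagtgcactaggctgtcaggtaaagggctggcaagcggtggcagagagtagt
The match to TCACNCCAC was found in *Hmgcs1* alone among the 5, beginning 137 bases before the start, and 1.24% of the 32851 RefSeq promoters of the same length held it. CACGTG was found in *Insig1* alone among the 5, beginning 101 bases before the start, against 7.15% of all promoters. CCAAT was present in 5 of 5, including *Idi1* and *Cyp51*, against 37.4% of all promoters, and GGGCGG in 5 of 5 against 35.7%. Of the 16 other enzymes of the pathway, 13 had a promoter entry, of which 11 held CCAAT, 12 GGGCGG, 3 CACGTG and 0 TCACNCCAC. A gene was counted if any of its promoter entries held the motif, whereas the shares of all promoters count each entry. *Dhcr7* had several entries, with CACGTG and CCAAT in different ones. A match of letters is not a bound site.

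The genes spanned a wide range of levels. Over the 54 mice, the mean level was 95.3 scaled TPM for *Hmgcs1*, 57.7 for *Insig1*, 25.5 for *Cyp51*, 17.6 for *Fdft1*, 10.4 for *Idi1* and 2.31 for *Lss*. These means placed *Hmgcs1* above 95.1% of all rows and *Lss* above 54.7% of them. *Sqle*, which makes the epoxide of squalene that LSS cyclises, was near the floor of the table and was listed at 0 in 16 of 54 mice. TPM divides by transcript length while QuantSeq reads the ends of transcripts only, so this order of genes also carries their lengths. Because of the rounding, *Lss* took only 6 different whole values and *Sqle* 8 over all mice, against 45 for *Hmgcs1*.

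*Hmgcs1* encodes the enzyme that forms HMG-CoA, a precursor of mevalonate. Its level ranged from 52.1 to 157 scaled TPM in controls (median 91.4), from 35.5 to 151 at 1.5 mg/kg bw/d (median 83.9), from 45.3 to 107 at 15 (median 77.5) and from 61.9 to 193 at 150 (median 113). The highest values were in the 150 group and the narrowest range in the 15 group, and the 4 ranges overlapped. The group means ± SD were 95.9 ± 28.9 (n = 14), 90.2 ± 37.3 (n = 13), 76.2 ± 18.9 (n = 13) and 117 ± 45.7 (n = 14), in order of dose.

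*Idi1* and *Fdft1* act further along, *Idi1* on the isomers of isopentenyl diphosphate and *Fdft1* on the joining of farnesyl diphosphate into squalene, the first step committed to sterols. *Idi1* ranged from 3.01 to 22.4 in controls (median 9.41), 3.05 to 15.2 at 1.5 (median 8.96), 4.09 to 17.1 at 15 (median 9.73) and 3.20 to 34.9 at 150 (median 7.93). In the 150 group the median of *Idi1* was the lowest of the 4 groups while its highest value was above that of every other group. *Fdft1* ranged from 9.72 to 26.0 in controls (median 16.0), 10.2 to 25.8 at 1.5 (median 15.7), 12.3 to 33.1 at 15 (median 17.9) and 8.89 to 44.1 at 150 (median 14.3). The same held for *Fdft1*: the 150 group had the lowest median, the lowest value and the highest value.

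*Sqle* was listed at 0 in 3 of 14 control mice, 3 of 13 at 1.5, 2 of 13 at 15 and 8 of 14 at 150 mg/kg bw/d. Its medians were 1.02, 1.79, 1.02 and 0 scaled TPM, and its highest values 6.54, 4.48, 5.32 and 6.21. Most mice at the highest dose thus showed no *Sqle* on the scale of the table, while the highest mice of that group were above every control but 1.

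*Lss*, the cyclase that forms lanosterol, ranged from 1.00 to 3.74 in controls (median 1.97), 0.93 to 2.98 at 1.5 (median 1.96), 1.99 to 5.71 at 15 (median 3.02) and 0.99 to 5.18 at 150 (median 1.50). The 15 group had the highest median and the highest value, and the ranges overlapped. *Cyp51*, which removes a methyl group from lanosterol, ranged from 12.4 to 35.5 in controls (median 20.2), 13.1 to 47.5 at 1.5 (median 31.6), 10.9 to 30.6 at 15 (median 19.1) and 13.9 to 60.0 at 150 (median 22.7). Its highest values were in the 1.5 and 150 groups. *Insig1* ranged from 32.9 to 84.6 in controls (median 51.5), 38.3 to 98.2 at 1.5 (median 64.2), 28.5 to 121 at 15 (median 61.6) and 24.6 to 75.5 at 150 (median 45.7), so the 15 group was the most spread and the 150 group the lowest by median.

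**Figure D1:**
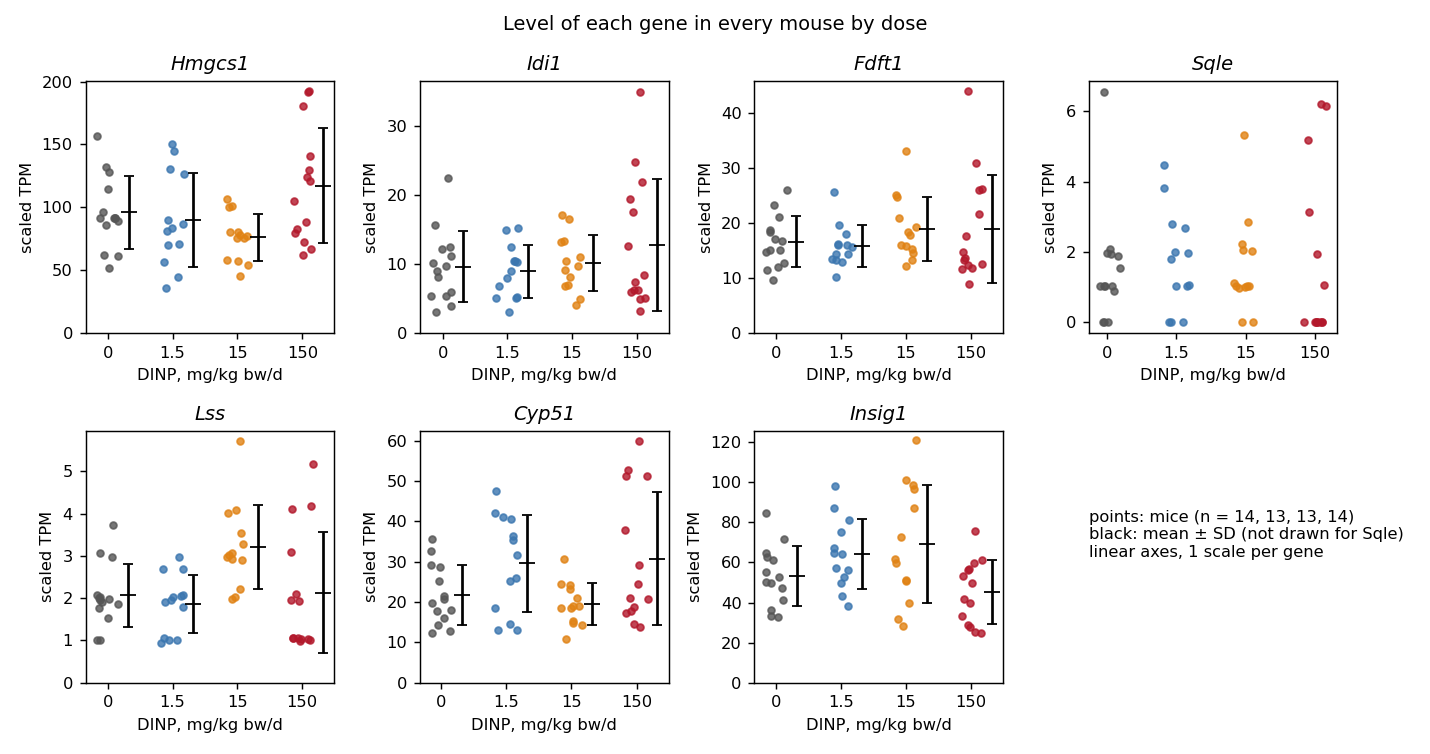
Level of each of the 7 genes in scaled TPM (linear vertical axis, 1 scale per gene) in every mouse, by DINP dose in mg/kg bw/d; points are mice and black marks are the mean ± SD, not drawn for *Sqle*. The groups overlap for every gene, *Lss* is highest at 15, and the 150 group holds both low and high mice for *Idi1*, *Sqle*, *Lss* and *Cyp51*.

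None of the 7 genes passed the test against control at 1.5 or 150 mg/kg bw/d, and at 15 *Lss* was the only one that rose. Differences were tested with limma on log2(value + 1) over the 11431 rows whose mean reached 1, with Benjamini-Hochberg adjustment over all of them, and a fold change on this scale understates the change of low genes such as *Lss*. At 1.5 mg/kg bw/d, 0 of 7 had an adjusted p under 0.05, against 1.2% of all tested rows, and 0 of 7 had an unadjusted p under 0.05 (12.3% of all rows). A Wilcoxon rank-sum test also gave 0 of 7, against 125 of the 11431 rows. The largest difference was that of *Cyp51*, with a log2 fold change of 0.38 (SE 0.21, adjusted p = 0.477). At 150 the count was again 0 of 7, against 2.17% of all rows, with 0 of 7 at an unadjusted p under 0.05 (14% of all rows). The Wilcoxon test gave 0 of 7 at this dose, against 292 of the 11431 rows. There *Cyp51* had a log2 fold change of 0.38 (95% interval -0.04 to 0.80) and *Insig1* of -0.26 (-0.63 to 0.11), so changes of these sizes cannot be told from none.

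At 15 mg/kg bw/d, 1 of 7 was called, against 14.2% of all tested rows. *Lss* rose by 0.46 on the log2 scale (SE 0.16, 1.38-fold, adjusted p = 0.0448), from a mean of 2.07 ± 0.75 (SD, n = 14) to 3.21 ± 1.00 scaled TPM (SD, n = 13). This is below the log2 fold change of 0.5 used beside the adjusted p to call a differentially expressed gene (DEG). The call was narrow: it was kept in 9 of 27 fits that each left out 1 mouse, with adjusted p up to 0.0817, and in 6 of the 10 other settings that could be tried on it, with adjusted p from 0.0235 to 0.0801. *Hmgcs1* at this dose had a log2 fold change of -0.31 (adjusted p = 0.296) and *Insig1* of 0.30 (adjusted p = 0.308), so the 7 genes did not share a direction. For comparison, *Ctsb*, which overlaps the end of *Fdft1* on the other strand, rose by 0.28 (adjusted p = 0.0159), while *Fdft1* had 0.18 (adjusted p = 0.523).

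Between the dose groups, *Lss*, *Hmgcs1* and *Insig1* differed. *Lss* was lower at 1.5 than at 15 (log2 fold change -0.57, SE 0.16, adjusted p = 0.00997), the only call among the 7 in that comparison, against 21.4% of all rows. The call for *Lss* was kept in 26 of 26 fits that each left out 1 mouse. Between 1.5 and 150, 0 of 7 were called by limma, against 4.61% of all rows, and 2 of 7 had an unadjusted p under 0.05 (18% of all rows). The Wilcoxon test gave 0 of 7, against 435 of the 11431 rows. The closest was *Insig1* with a log2 fold change of 0.53 (adjusted p = 0.0926), which was called when every library was rescaled to the same total (0.63, adjusted p = 0.0319) or weighted by array quality (0.58, adjusted p = 0.0347).

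Between 15 and 150 mg/kg bw/d, 3 of 7 were called, against 20% of all tested rows, and their directions differed. *Hmgcs1* was lower at 15 than at 150 (log2 fold change -0.55, SE 0.19, 0.68-fold, adjusted p = 0.0308). This call was lost with the replicate block (adjusted p = 0.0512), without a filter (0.0521), after rescaling (0.0650) and with array weights (0.0825). *Insig1* was higher at 15, with means of 69.3 ± 29.4 (SD, n = 13) against 45.3 ± 15.9 (SD, n = 14) scaled TPM (log2 fold change 0.56, SE 0.19, adjusted p = 0.0273). *Lss* was also higher at 15 (0.52, SE 0.16, adjusted p = 0.0174). *Cyp51* moved like *Hmgcs1* in sign, with -0.50, but did not pass (adjusted p = 0.0893). The Wilcoxon test called 0 of the 7 in this comparison, with adjusted p of 0.0785 for *Hmgcs1*, 0.126 for *Insig1* and 0.136 for *Lss*. Over all 11431 rows it called 1246, against 2282 by limma, so fewer calls were found by this test in general. *Hmgcs1* kept its call in 21 and *Insig1* in 23 of 27 fits without 1 mouse, and *Lss* in 27 of 27.

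In an F test over the 4 groups, *Lss* (adjusted p = 0.0196) and *Insig1* (adjusted p = 0.0489) passed, 2 of 7, against 26.7% of all rows. Only 19 of 54 fits without 1 mouse, and 6 of 9 other settings, kept the count at 2, and the others gave 1. The robust setting did not alter the F test, so its place among the 6 was fixed in advance. The order of group means for *Lss* was 15, 150, control and 1.5, in which limma called 15 as different from each of the others and no other pair of groups. The call against control was kept in only 9 of 27 fits without 1 mouse. That against 150 was lost in a limma fit of those groups alone (adjusted p = 0.0529) and by the Wilcoxon test (adjusted p = 0.136). For *Insig1* the order was 15, 1.5, control and 150, and only the ends of that order were called as different. For *Hmgcs1* it was 150, control, 1.5 and 15, and again only the ends were called, though its F test gave an adjusted p of 0.10.

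**Figure D2:**
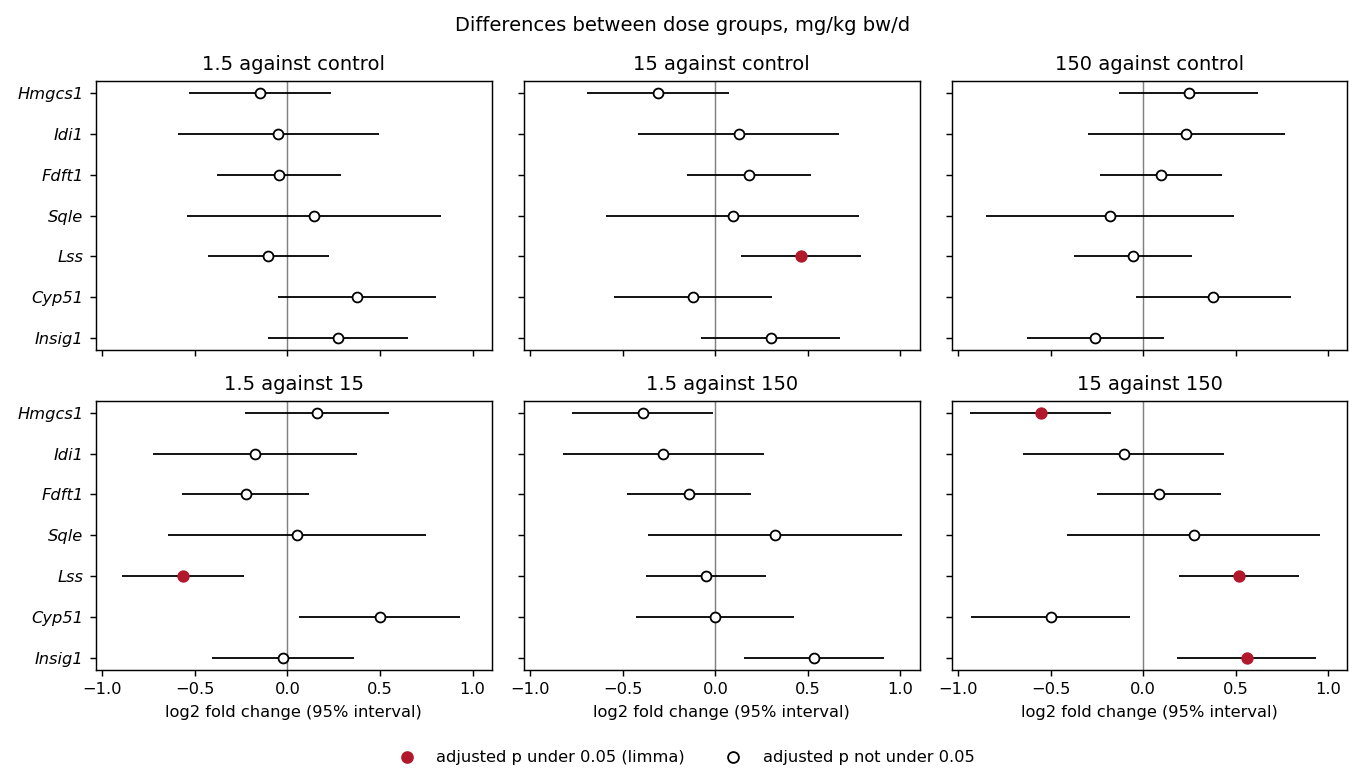
Log2 fold change (horizontal axis, on the log2(scaled TPM + 1) scale) of the 7 genes in 6 comparisons of dose groups in mg/kg bw/d; points are estimates, bars are 95% intervals, and filled points have an adjusted p under 0.05 by limma. *Lss* is filled in the 3 comparisons that involve the 15 group, and *Hmgcs1* and *Insig1* in the comparison of 15 with 150, on opposite sides of 0.

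Single genes of some other lists were also called at 15 mg/kg bw/d, where 14.2% of all tested rows were, and their part in the higher *Lss* was not tested. Of 14 clock and clock output genes, 3 rose (*Dbp*, *Per3* and *Nr1d2*, with log2 fold changes of 1.00, 0.75 and 0.42), and the summed level of that list was 167 to 284 scaled TPM at 15 against 100 to 301 in controls. Of 5 hepatocyte markers 1 rose (*Ttr*, 0.42), with a summed level of 29675 to 50742 against 23516 to 47178 in controls. Of 7 macrophage markers 1 fell (*Csf1r*, -0.60) and of 6 endothelial markers 1 fell (*Pecam1*, -0.52), with sums of 56.6 to 118 against 59.1 to 178 and of 57.2 to 96.2 against 71.7 to 95.8. In whole liver, fewer cells of a type and less RNA per cell cannot be told apart. Hepatocyte markers exceeded those of every other cell type looked at, among which 5 adipocyte markers summed to at most 49.6 and 7 lymphocyte markers to at most 16.0 in any mouse.

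The 16 other enzymes of the pathway, from *Acat2* to *Dhcr7*, were not called at any dose against control. The counts were 0 of 16 by limma at 1.5, 15 and 150, where 1.2%, 14.2% and 2.17% of all tested rows were called. With shares that small at 1.5 and 150, 0 calls there say little about this list. At an unadjusted p under 0.05 the counts were 1, 0 and 2, against 12.3% of all rows at 1.5 and 14% at 150. The Wilcoxon test gave 0 of 16 at each dose, and over all 11431 rows it called 125, 679 and 292. Their median log2 fold changes were 0.07, 0.06 and 0.07, and those of the 7 genes -0.05, 0.13 and 0.09, where the median of all tested rows lay between -0.01 and 0.00. Between 15 and 150, where 20% of all rows were called, *Tm7sf2*, a sterol reductase, was the only one of the 16 (-0.40, adjusted p = 0.0453). It was lower at 15, as *Hmgcs1* was.

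Of the 16 genes of the SREBP2 machinery, 2 were called at 15 against control, a share no higher than the 14.2% of all tested rows. *Srebf2*, which encodes SREBP2, fell by 0.45 on the log2 scale at 15 against control (adjusted p = 0.0452), from a mean of 3.56 to 2.44 scaled TPM. It was also lower at 15 than at 1.5 (adjusted p = 0.00489) and than at 150 (adjusted p = 0.0453). In each of these 2 comparisons 2 of the 16 were called, where 21.4% and 20% of all rows were, so neither share exceeded that of all rows. *Srebf1*, which encodes SREBP1, had the opposite order, higher at 15 than at 1.5 (1.5 against 15: -0.48, adjusted p = 0.0196) and than at 150 (15 against 150: 0.46, adjusted p = 0.0218), without a call against control. The other machinery gene that fell at 15 was *Paqr3* (-0.45, adjusted p = 0.0122), a Golgi protein that anchors SCAP. Its means were 2.35 scaled TPM in controls and 1.47 at 15. *Srebf2* and *Paqr3* are thus as low as *Lss*, and rounding limits them in the same way. At 1.5, where 1.2% of all rows were called, *Ube2g2*, a ubiquitin-conjugating enzyme, had a log2 fold change of -0.56 (adjusted p = 0.0453) and was the only gene of any list called. That count of 1 became 0 without a filter, after rescaling and with the replicate block, and was kept in 4 of 27 fits without 1 mouse. None of the 16 was called at 150 against control by limma, where 2.17% of all rows were. At that dose 2 of the 16 had an unadjusted p under 0.05 (14% of all rows). *Scap* had log2 fold changes of 0.06, 0.03 and 0.16 in order of dose, and *Insig2*, the other INSIG gene, of -0.54, -0.46 and -0.14, with adjusted p of 0.135, 0.0684 and 0.788.

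Among 14 other targets of SREBP2, a list that shares genes such as *Nsdhl*, *Mvd*, *Fdps* and *Srebf2* with those above, none was called at 1.5 or 150 by limma, against 1.2% and 2.17% of all rows. At an unadjusted p under 0.05 the count was 0 at either dose, against 12.3% and 14% of all rows. At 15, 2 of 14 were called, close to the 14.2% of all tested rows. *Tmem41b* rose (0.45, adjusted p = 0.00396) and *Srebf2*, already counted above, fell. At 150, where 2.17% of all rows were called, the same fit called 7 of 11 PPARA targets. All 7 were higher, among them *Ehhadh* by 1.54 (adjusted p = 1.13e-13).

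With the 4 groups pooled, the deviations of the 7 genes from their group means were positively correlated from mouse to mouse, but in the 15 group taken alone no pair passed. This was measured for the 21 pairs on log2(value + 1) after subtraction of each group's mean, with a two-sided permutation test of 100000 resamples within groups. Over the 54 mice, Pearson's r ranged from 0.28 (*Fdft1* with *Insig1*) to 0.82 (*Sqle* with *Cyp51*), with a median of 0.56, and Spearman's rho from 0.29 to 0.80. All 21 r were above 0, and 20 of 21 passed after adjustment over the 21 pairs. The exception was *Fdft1* with *Insig1* (raw and adjusted permutation p = 0.0509), which passed by rho (0.0440). For *Sqle* with *Cyp51* the permutation p was 1e-05, the smallest the test could give, and the adjusted p 2.62e-05. Without the 2 mice farthest from the median of the first gene of each pair, r ranged from 0.30 to 0.79. All points of a correlation share their libraries and scaling, and rescaling each library to the same total gave r from 0.27 to 0.83.

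*Idi1* followed the others most closely, with an r of 0.85 with the mean deviation of the other 6, and *Cyp51* (0.84) and *Sqle* (0.82) were near it. *Lss* had 0.70, *Hmgcs1* 0.68 and *Fdft1* 0.64. *Insig1*, the gene of the 7 that is no enzyme, had the lowest value, 0.49. The mean deviation of the 7 genes in a mouse had an r of -0.10 with the log2 sum of its library and of -0.10 with the size of its rounding step.

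The 150 group contributed much to these correlations. In that group alone r ranged from 0.66 to 0.95 with a median of 0.80, and 21 of 21 pairs passed. Its 14 mice fell apart into 9 whose mean deviation over the 7 genes was between -1.40 and -0.08 SD and 5 between 0.82 and 1.82 SD. Over the 9 lower mice alone, r ranged from -0.28 to 0.87 with a median of 0.34 and was above 0 in 15 of 21 pairs. Those 9 were picked by their low mean over the same genes, which by itself lowers r, so this value does not show where the high r of the group came from. Each of those 5 mice was above the group median for all 7 genes, which was true of 0 mice in the other 3 groups. The *Sqle* median at 150 was 0, so any *Sqle* value above 0 counted there. At least 6 genes were above the median in 3 control mice, 1 at 1.5, 1 at 15 and 5 at 150. The highest mean deviation was 1.36 SD in controls, 0.95 at 1.5 and 0.75 at 15. In those 5 mice *Cyp51* was 37.8 to 60.0 scaled TPM, and in the other 9 it was 13.9 to 29.3. *Idi1* was 17.6 to 34.9 in the 5 and 3.20 to 12.5 in the 9. Both genes are part of the mean that split the mice, which by itself sets their ranges apart. These ranges are therefore a description and no support for the split. The split was seen in the values, no label of the study separates these mice, and the mice were not compared as groups.

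In controls alone, r ranged from -0.01 to 0.86 with a median of 0.52, and 8 of 21 pairs passed. At 1.5 mg/kg bw/d it ranged from -0.05 to 0.92 (median 0.54, 3 of 21 passing) and at 15 from -0.49 to 0.60 (median 0.24, 0 of 21 passing, with a smallest raw permutation p of 0.0296). Over the 40 mice of these 3 groups, without the 150 group, r ranged from -0.01 to 0.72 with a median of 0.36, and 12 of 21 pairs passed by r and 7 by rho. *Hmgcs1* with *Cyp51* had 0.86 in controls, 0.68 at 1.5, 0.09 at 15 and 0.75 at 150. The spread of the mean deviation was 0.67 SD units in controls, 0.73 at 1.5, 0.46 at 15 and 1.20 at 150. Whether r or spread differed between dose groups was not tested.

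**Figure D3:**
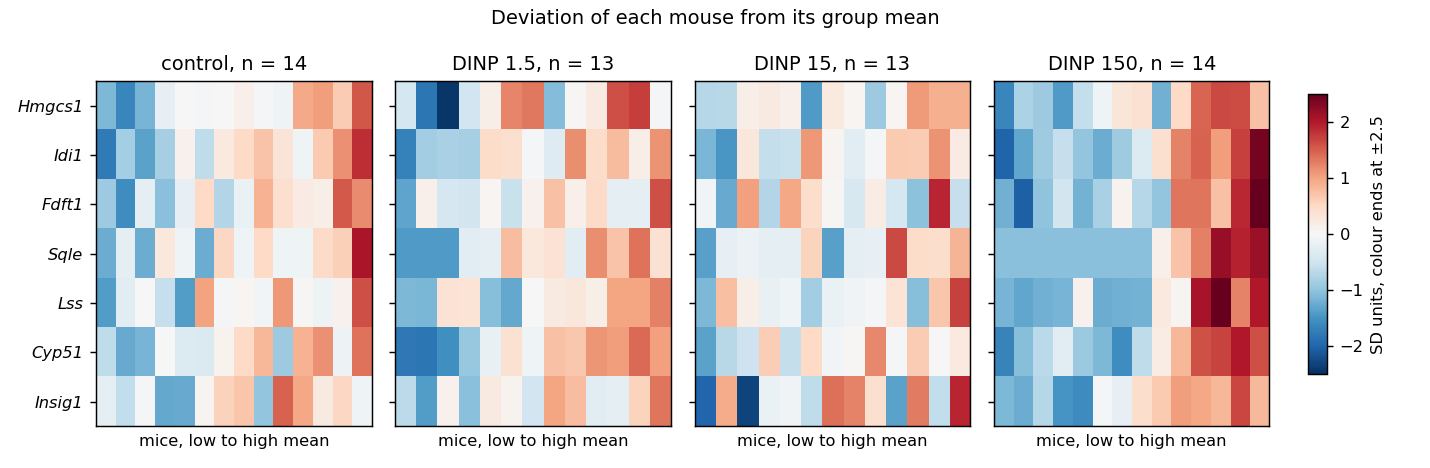
Deviation of each mouse (columns, ordered from low to high mean within a group) from its group mean for the 7 genes (rows), on log2(scaled TPM + 1) in SD units, red above and blue below the mean. In the 150 group the 5 columns at the right are red for all 7 genes, whereas rows of the 15 group differ from each other.

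**Figure D4:**
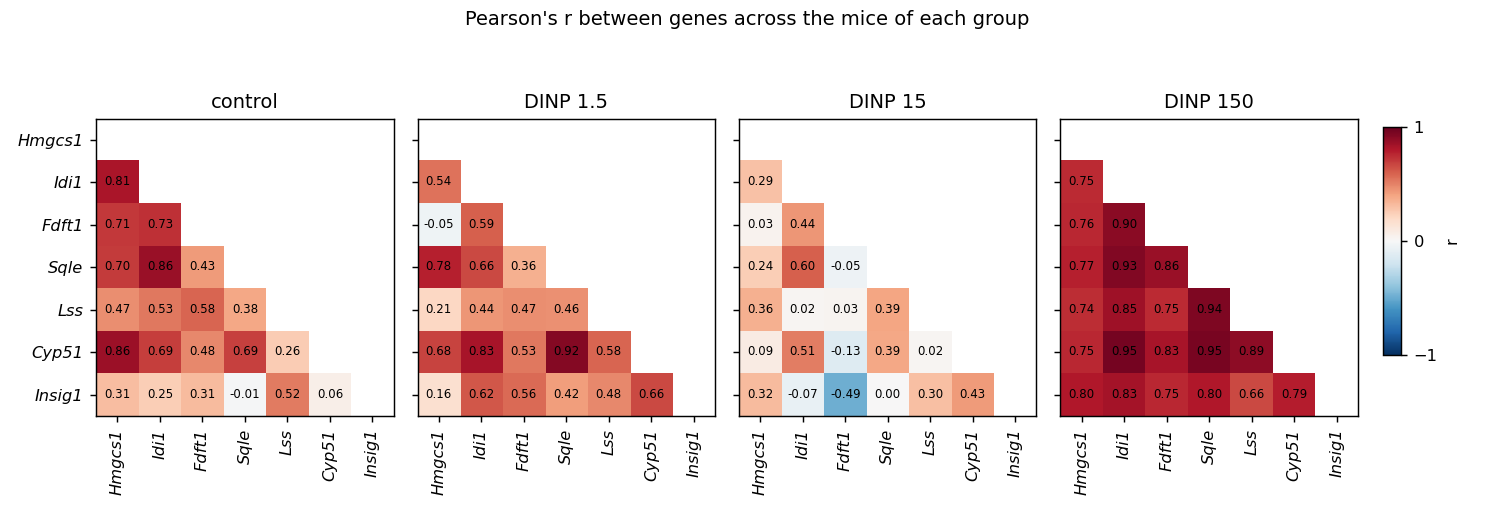
Pearson's r between each pair of the 7 genes across the mice of each dose group (n = 14, 13, 13 and 14), from -1 in blue to 1 in red. The median over the 21 pairs is 0.52 in controls, 0.54 at 1.5, 0.24 at 15 and 0.80 at 150 mg/kg bw/d.

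The genes whose values followed the 7 most closely were other enzymes of the same pathway. Each of the 11424 tested rows outside the 7 was correlated over the 54 mice with their mean deviation, as a description. The 8 highest were *Msmo1* (r = 0.92), *Fdps* (0.91), *Hsd17b7* (0.87), *Dhcr7* (0.85), *Nsdhl* (0.84), *Mvd* (0.83), *Pmvk* (0.81) and *Sc5d* (0.80). All 8 encode enzymes between mevalonate and cholesterol, and their r within the 15 group alone was 0.61 to 0.83, including *Msmo1* at 0.72. Of the 16 other enzymes, 12 were among the 25 highest, with a median r of 0.79, against -0.01 for all rows, of which 83 had an r above 0.5. Among those that were not were *Tm7sf2* (0.43), *Ebp* (0.39) and *Lbr* (-0.08), a sterol reductase that is also a receptor for lamin B.

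Of 11 targets of SREBP1c, 8 also followed the 7 genes with an r above 0.5, such as *Gpam* (0.75), *Acly* (0.73) and *Fasn* (0.68), enzymes of fat synthesis. The mRNAs of the regulators did so less: *Scap* had 0.39, *Srebf2* 0.27, *Srebf1* 0.17 and *Insig2* -0.12, and none of the 16 machinery genes exceeded 0.5. Genes of the other lists went both ways or less far: r ranged from -0.21 to 0.49 for 5 hepatocyte markers, -0.02 to 0.31 for 7 macrophage markers, -0.40 to 0.33 for 6 endothelial markers, -0.46 to 0.48 for 14 clock genes and -0.04 to 0.34 for 11 PPARA targets. For the 5 erythroid markers it ranged from -0.39 to 0.30 with a median of 0.29. No differences between these r were tested.

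**Figure D5:**
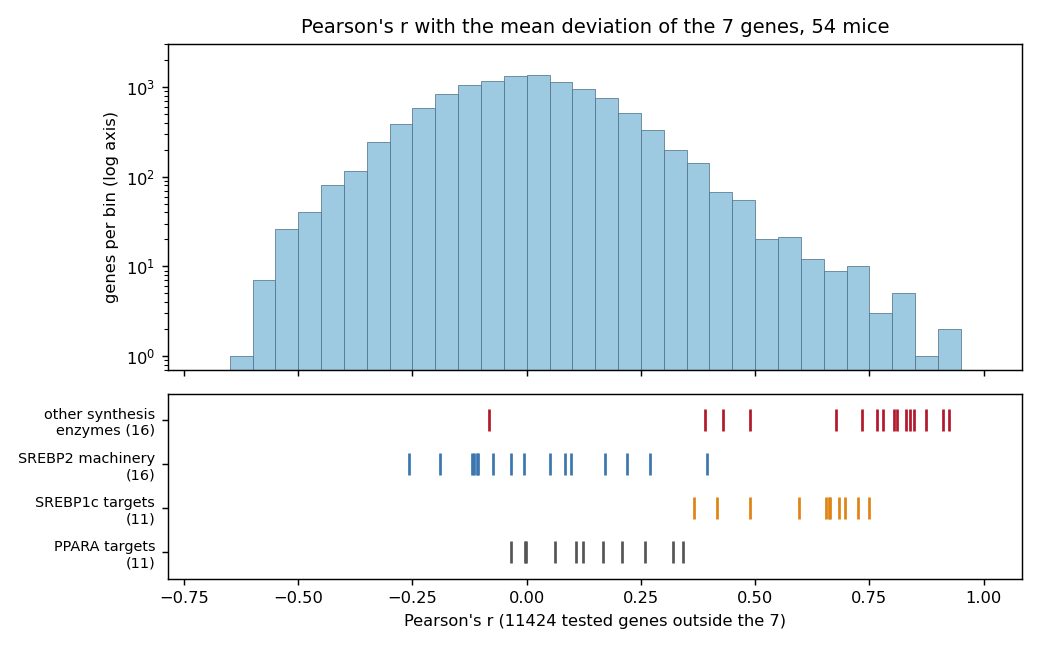
Upper panel: number of tested genes (log axis) by Pearson's r over 54 mice with the mean deviation of the 7 genes, for the 11424 genes outside the 7. Lower panel: r of each gene of 4 lists, where 12 of 16 other synthesis enzymes lie above 0.5 and the 16 SREBP2 machinery genes and 11 PPARA targets lie between -0.26 and 0.39.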

How the data were processed

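Medial-lobe liver RNA of 54 mice was sequenced by QuantSeq. Per the labels and methods, the authors aligned and quantified reads with STAR, RSEM and Salmon on GRCm38, and the annotation release was not given in the sources used here. The deposited table is named TPM, but its values are a signal that looks like whole-number TPM after division by a factor for each mouse: 100% of values lay within 0.001 of a whole multiple of 1 step per mouse (0.764 to 1.11), and these whole numbers summed to 948342 to 980641. Read counts were not recovered, so the depth is unknown and no counting interval is given. 0 columns were left unmapped. The authors tested counts with DESeq2, which these values do not allow, so limma 3.58.1 (R 4.3.3) with an intensity trend was fitted to log2(value + 1) over all 4 groups, for rows with a mean of at least 1 (11431 of 20162), with Benjamini-Hochberg adjustment over all of them, and was tested on simulated data. The limma p-values weigh group differences against the spread between mice, and the permutation p-values concern correlation across mice within groups. Alternatives were a pseudocount of 0.1 or 5, a minimum mean of 5 or none, rescaling to the same total, quantile normalization, array weights, a robust fit, a replicate block, the compared groups alone, a Wilcoxon test and each mouse left out. The members and lists were chosen with earlier results of these data known. All 7 members and, among others, *Srebf2*, *Srebf1*, *Scap* and *Insig2* were named. Other list genes were named where called against control (up to 6 per list by smallest p), and the 8 genes most correlated with the members. *Tm7sf2*, *Gpam*, *Acly*, *Fasn*, *Ebp*, *Lbr* and the genes overlapping a member were named after their values were seen. Results for some genes of the lists are not reported here. Position and promoter data came from GENCODE M21 and RefSeq.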

Additional observations from a re-analysis of the deposited data

How the results depend on the processing

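Whole-number rounding limits *Lss*, *Sqle* and other low genes such as *Srebf2* and *Paqr3*, no depth is known, and the scaling could not be undone. Between 15 mg/kg bw/d and control, the count of the 7 genes called was 1 and fell to 0 with a pseudocount of 0.1, without a filter, with a minimum mean of 5 (which removes *Lss*), after rescaling and with array weights, and ranged from 0 to 1 with 1 mouse left out. For 1.5 against 15 it was 1, and 0 with a minimum mean of 5, and 1 to 2 with 1 mouse left out, the 2 arising when *Cyp51* was called without 1.5 replicate 7 or 12. For 1.5 against 150 it was 0, and 1 after rescaling or with array weights. For 15 against 150 it was 3, 1 with those groups alone, 0 by the Wilcoxon test and 2 to 3 with 1 mouse left out. The F test gave 2, 1 with a pseudocount of 0.1, no filter or a minimum mean of 5, and 1 to 2 with 1 mouse left out (2 in 19 of 54 fits). Over the other lists, the 1 gene called at 1.5 became 0 without a filter, after rescaling and with the block, 3 with array weights, 2 with those groups alone and 0 to 2 with 1 mouse left out, and the 15 at 15 became 6 by the Wilcoxon test. Pairs of the 7 passing by r numbered 20, against 8, 3 and 0 in the control, 1.5 and 15 groups alone and 12 without the 150 group, the last chosen after seeing the data, as were these settings for comparisons between doses, for the lists and for the F test. Apart from the removal of *Lss* by the minimum mean of 5, the cause of these changes was not tested. Groups taken alone also hold fewer mice, and the part of that was not tested either.

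Directions turned only for differences that were not called, with log2 fold changes from -0.18 (*Sqle* at 150 against control) to 0.13 (*Idi1* at 15 against control) as reported. That of *Sqle* at 150, a gene near the floor, ranged from -1.01 to 0.00016 over the other settings. With array weights, against control at 15, *Sqle* became -0.0593 and *Idi1* -0.0132. *Sqle* became 0.00016 with a pseudocount of 5 at 150 and -0.0719 with 0.1 for 1.5 against 15, where *Insig1* became 0.0274 after rescaling. For 1.5 against 150, *Lss* became 0.0141 after rescaling and 0.0186 with array weights, and *Cyp51* 0.00764 with quantile normalization, 0.0891 after rescaling, 0.0771 with array weights and 0.0166 with the replicate block. With 1 mouse left out, the ranges that crossed 0 were -0.146 to 0.0503 for *Idi1* and -0.105 to 0.00424 for *Fdft1* at 1.5, -0.0292 to 0.232 for *Sqle* at 15 and -0.00629 to 0.162 for *Fdft1* at 150, against control. Between doses they were -0.0498 to 0.173 for *Sqle* and -0.12 to 0.0509 for *Insig1* (1.5 against 15), -0.0918 to 0.036 for *Lss* and -0.0741 to 0.0824 for *Cyp51* (1.5 against 150), and -0.215 to 0.0232 for *Idi1* (15 against 150).

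The replicate numbers do not pair the mice: over 79 pairs of same-numbered mice the mean correlation of deviations was -0.00250, and 12.7% were above 0.1. With the number as a block, calls over all rows went from 137 to 67, 1621 to 1460 and 248 to 213 at 1.5, 15 and 150 against control, and *Hmgcs1* between 15 and 150 lost its call (adjusted p = 0.0512), as it did without a filter, after rescaling, with array weights and by the Wilcoxon test.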

Other observations

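Genes that take up, store, export and break down cholesterol were tested in the same limma fit. At 15 mg/kg bw/d, 2 of 14, 1 of 8 and 1 of 7 genes of the 3 lists were called, close to the 14.2% of all tested rows, and at 150, where 2.17% of all rows were called, 2 of 14, 1 of 8 and 0 of 7. At 1.5, 1.2% of all rows were called. An unadjusted p under 0.05 was found for 12.3% of all rows at 1.5 and 14% at 150. Of 14 genes of cholesterol esterification, uptake and transport, *Lipa*, the lysosomal acid lipase that frees cholesterol from its esters, fell at 15 mg/kg bw/d against control (log2 fold change -0.71, adjusted p = 0.00845), from a mean of 81.3 to 49.8 scaled TPM. *Lrp1*, a receptor for remnant lipoproteins, rose at 15 (0.42, adjusted p = 0.0474) and at 150 (0.60, adjusted p = 0.0142), and *Nceh1*, a hydrolase of cholesterol esters, rose at 150 (0.52, adjusted p = 0.000611). None of the 14 was called at 1.5, where 4 had an unadjusted p under 0.05. Of 8 LXR targets, *Abcg5*, which moves sterols into bile, rose at 15 (0.39, adjusted p = 0.0112) and *Lpcat3*, which remodels phospholipids, at 150 (0.45, adjusted p = 0.00458), with 0 called at 1.5 and 2 at an unadjusted p under 0.05. Of 7 tested genes of cholesterol catabolism, *Akr1d1*, a reductase of bile acid synthesis, rose at 15 (0.52, adjusted p = 0.00235), and none was called at 1.5 or 150, with 0 and 1 at an unadjusted p under 0.05.

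None of the 9 genes of the branch to dolichol, ubiquinone and prenylation was called at 1.5, 15 or 150 (0, 2 and 0 at an unadjusted p under 0.05), nor of the 11 tested SREBP1c targets (1, 2 and 0), nor of the 10 genes of the fed and fasted state (1, 0 and 2). Of all tested rows, 1.2%, 14.2% and 2.17% were called at these doses, so 0 calls in lists this short say little. At an unadjusted p under 0.05 the share was 12.3% at 1.5 and 14% at 150, and for 15 it is not given here. At 15, where 14.2% of all tested rows were called, 2 of the 11 PPARA targets rose, among them *Angptl4* (0.55). Over all these lists together, a Wilcoxon test called 1, 6 and 11 genes at 1.5, 15 and 150, against 1, 15 and 10 by limma. Over all tested rows it called 125, 679 and 292, against 137, 1621 and 248 by limma. Summed markers of red blood cells (5 genes) ranged from 282 to 3411 scaled TPM over the 54 mice.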
